A study of Mus musculus with 16 samples.

Results

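The Siglec receptors are sialic acid-binding lectins of the immunoglobulin superfamily, and 7 of their genes were followed here: Siglech, Siglece, Siglecg, Siglecf, Cd33, Cd22 and Siglec1. They were taken by symbol from the 53850 genes of the deposited table, and all 7 were found and passed the filter on low values. A Siglec reads the sialic acid caps that cells carry on their surface glycans. Most members bear inhibitory tyrosine motifs in the tail that recruit phosphatases and restrain the cell, whereas Siglech has no such motif and pairs with the activating adaptor encoded by Tyrobp. In the brain Siglech is widely used as a microglial marker. CD22 is known as a brake on microglial phagocytosis, and CD33 has been described as one, which RNA levels do not test.

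The libraries came from cells labelled microglia, sorted from the cortex of C57BL/6J mice. The 16 libraries form 4 groups of 4: males on control chow, males on chow with PLX3397, females on control chow and females on chow with PLX3397, each for 1 week. PLX3397 inhibits the CSF1 receptor, on which microglia depend for survival, so the treated libraries hold the cells that remained. The mice are called young or adult in the series' text, with no age in days. No transgene, deletion or other agent is named for any group, and the gate of the sort is not given in the sources used here. The labels do not say that samples came from separate mice, so p-values measure the spread between these samples, which may be technical.

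Values are normalised read counts, which summed to between 32600000 and 44200000 per library. Much of the low range lay near multiples of a step that differed by library, from which depth was estimated roughly at 22300000 to 77700000 reads. By group the estimates were 42200000 to 77700000 in male controls and 29600000 to 38700000 in males on PLX3397. They were 29100000 to 38400000 and 22300000 to 72700000 in the respective female groups. Estimated depth in males was thus lower on PLX3397 without overlap, and its part in low values was not tested. The defining microglial genes were high in every library: 9 of 9 markers were tested, with a summed level of 2260918 to 2437339 in male controls, 1020815 to 1451374 in males on PLX3397, and 2147535 to 2641752 and 1641415 to 1863799 in the respective female groups. All 9 markers were lower on PLX3397 in males and 7 of 9 in females. In bulk libraries, fewer cells of a type and less RNA per cell cannot be told apart. Changes are differences on the log2(value + 1) scale ± SE, and adjusted p-values come from limma over 19594 genes.

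Levels of different members can be compared only per length, here as normalised read counts per kilobase of merged exon. These lengths take in every annotated exon, from 1.85 kilobases for Siglece to 7.77 for Cd33, and the transcripts present may be shorter. The order of members and their shares rest on these lengths. Siglech stood first in every group, with 24900 ± 1270 (SD, n = 4) per kilobase in male controls, a level above that of 99.8% of the tested genes of known length. Cd33, a myeloid member, followed with 3320 ± 361 and Siglece, the main inhibitory Siglec of mouse neutrophils and macrophages, with 2700 ± 148. Siglecf, best known from eosinophils and alveolar macrophages, read 628 ± 81.0 per kilobase. Cd22, the inhibitory co-receptor of B cells, read 131 ± 40.6, and Siglecg, another B cell Siglec, 106 ± 26.4. Siglec1, the long macrophage adhesion receptor sialoadhesin, was last with 21.4 ± 17.9. Of neighbours in this order, only Cd22 and Siglecg had ranges that overlapped in male controls. In female controls the order was the same and no neighbours overlapped.

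On PLX3397 the order changed at 1 place in both sexes: Cd22 moved above Siglecf. In males on PLX3397 Cd22 read 664 ± 97.8 per kilobase, with a range that overlapped those of Siglece (792 ± 337) and Siglecf (555 ± 59.4). Among females on PLX3397 it read 753 ± 153, and its range of 526 to 846 lay above that of Siglecf, at 365 to 521. In males on PLX3397 Siglec1 also stood above Siglecg, though their ranges overlapped. As a share of the summed level of the 7 genes per kilobase, Siglech went from 78.28% in male controls to 71.7% on PLX3397, and Cd22 from 0.42% to 3.79%. In females the same shares were 78.85% and 73.89% for Siglech, and 0.57% and 3.5% for Cd22. The share of Cd33 went from 10.44% to 16.52% in males and from 10.02% to 14.16% in females, and that of Siglece from 8.48% to 4.38% and from 8.17% to 6.22%. Siglech thus kept the largest share in every group, while those of Cd33 and Cd22 were higher on PLX3397 and those of Siglech and Siglece lower.

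**Figure D1:**
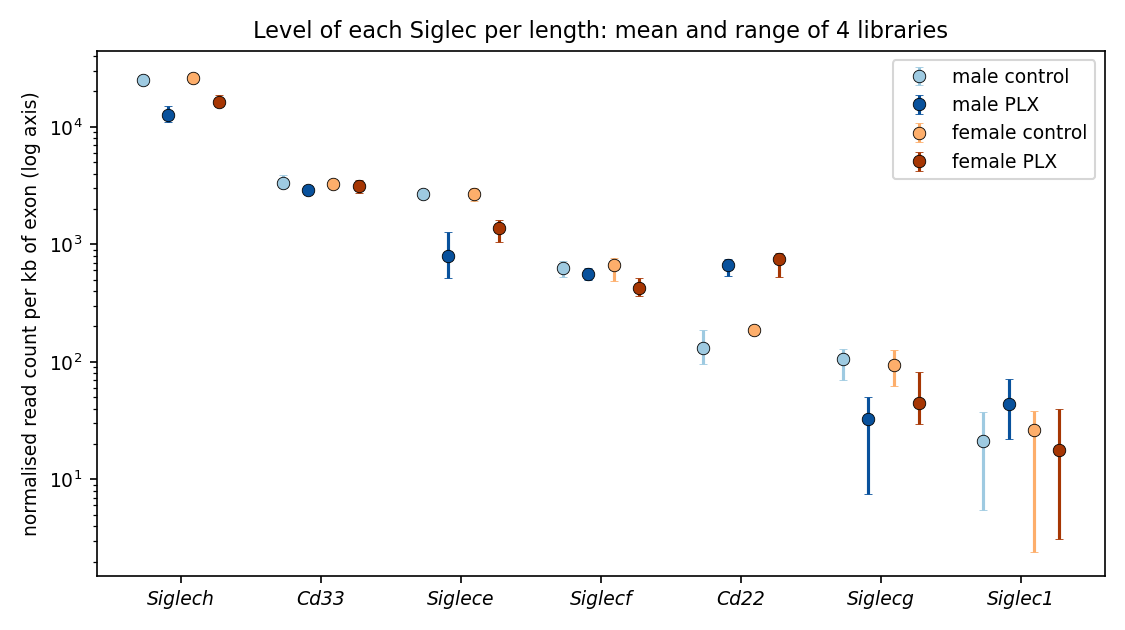
Normalised read count per kilobase of merged exon (log axis) for the 7 Siglec genes, with points for the mean and bars for the range of 4 libraries in each of the 4 groups. Siglech leads in every group, and Cd22 lies below Siglecf on control chow and above it on PLX3397.

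The comparison of the 2 chows within each sex asks how these genes differed in the cells that remained on PLX3397. In males 4 of 7 members changed: Siglech, Siglece and Siglecg fell and Cd22 rose, while Siglecf, Cd33 and Siglec1 did not pass. Of all genes tested in males, 11.7% changed, 7.52% lower and 4.16% higher. In females 4 of 7 changed as well: Siglech, Siglece and Siglecf fell and Cd22 rose, against 5.34% of all genes, 2.67% lower and 2.67% higher. The median change of the 7 members was -0.20 in males and -0.63 in females, beside 0.02 and -0.003 for all genes tested. Among males the split of all changed genes depended on scaling, with 815 higher and 1474 lower as reported, 1032 and 1224 under upper-quartile scaling, 1348 and 917 once library totals were made equal (which moved the median of all genes by 0.156), and 1040 and 1188 after quantile normalisation. The 4 calls held in males under each of these scalings.

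**Figure D2:**
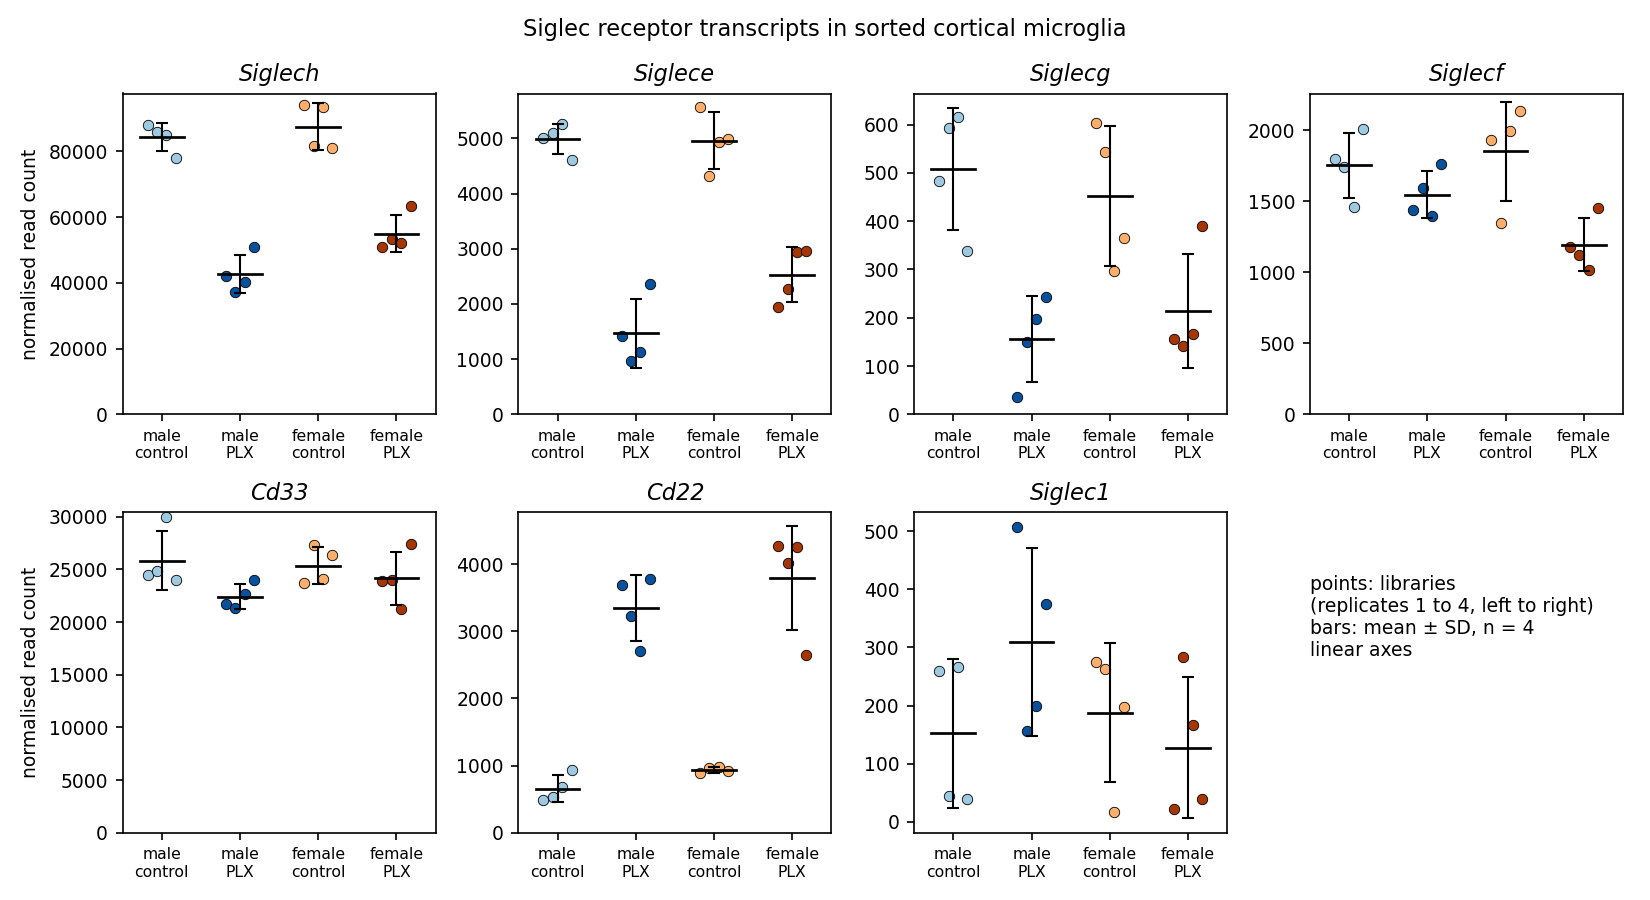
Normalised read counts (linear axes) of each Siglec gene in every library, with lines and bars for the mean ± SD of 4 libraries per group. Siglech and Siglece are lower and Cd22 is higher on PLX3397 in both sexes without overlap, while the groups of Cd33 lie close together.

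Siglech, which signals through the Tyrobp adaptor, is described first. It read 87991, 86001, 85064 and 78114 in the 4 male controls and 42204, 37330, 40170 and 50982 in the 4 males on PLX3397. Every treated library lay below every control, with replicate 4 the highest of the treated ones. The change was -0.99 ± 0.0934 (adjusted p = 3.31e-06), a 1.99-fold fall.

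Female controls read 94094, 81683, 93432 and 81010 for Siglech, and females on PLX3397 51019, 53239, 52086 and 63271. Again no libraries overlapped, and again replicate 4 was the highest treated library. The change was -0.68 ± 0.0934 (adjusted p = 0.00029). Siglech also marks plasmacytoid dendritic cells, whose markers Ly6d and Klk1 were at 0 in all 16 libraries. The 8 markers of that cell type summed to between 282.8 and 821.7 in any library, 2 of them never above 0. Of the 6 tested, 1 fell in males (Pacsin1) and none changed in females. The median change of the 6 was upward, at 0.76 in males and 0.45 in females. The part of these cells in the Siglech values was not tested.

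Siglece, an inhibitory member, fell further than Siglech in males. Its levels were 5004, 5096, 5258 and 4613 in male controls against 1424, 958, 1123 and 2353 on PLX3397. The groups did not overlap, and the change was -1.86 ± 0.214 (adjusted p = 2.53e-05), a 3.62-fold fall. In females Siglece read 5577, 4321, 4940 and 4998 on control chow and 1948, 2276, 2943 and 2957 on PLX3397. These groups were also apart, with a change of -0.99 ± 0.214 (adjusted p = 0.0101). Markers of neutrophils, which carry Siglece, moved the other way in males: 8 of 11 tested rose and none fell. Their summed level was 36274 to 37443 on control chow and 49391 to 111771 on PLX3397, with a median of 54314 there. Csf3r made up 32915 to 36947 and 37714 to 41792 of these sums. Male PLX replicate 3 was the highest library, with S100a8 at 14419 against 2020 to 3184 in the others of its group. In females 5 of the 11 rose and none fell, with sums of 29161 to 34170 on control chow and 24249 to 35488 on PLX3397. Most of these sums was Csf3r, at 28909 to 33967 and 23269 to 34348. The neutrophil genes Ly6g and Elane were at 0 in all 4 male controls, and S100a8, S100a9, Ly6g, Ltf, Retnlg, Mmp8 and Elane were so in all 4 female controls. The part of these cells in the Siglece values was not tested.

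Within a library, ratios between members are free of the scaling of that library. The ratio of Siglech to Siglece per kilobase was 9.23 ± 0.314 in male controls and 17.2 ± 4.16 in males on PLX3397, with ranges of 8.84 to 9.61 and 11.8 to 21.3. In females it was 9.69 ± 0.762 and 12.1 ± 1.95, with ranges of 8.86 to 10.3 and 9.67 to 14.3. The 2 ranges were apart in males and overlapped in females. Set against Cd33, Siglece fell from 0.816 ± 0.0588 to 0.272 ± 0.101 in males and from 0.828 ± 0.135 to 0.444 ± 0.103 in females, a description chosen after the values were seen and without a test.

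Cd22 rose in every comparison of the 2 chows. Male controls read 487, 529, 681 and 939, and males on PLX3397 3683, 3225, 2707 and 3784. The lowest treated library was thus well above the highest control, and the change was 2.38 ± 0.197 (adjusted p = 1.02e-06), a 5.21-fold rise. By p-value Cd22 ranked 31 of 19594 genes in males, and its change was larger in size than those of 96.6% of them.

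In females Cd22 read 889, 960, 986 and 923 on control chow and 4267, 4020, 4254 and 2652 on PLX3397. The 4 controls lay close together, and the treated libraries were all higher, with replicate 4 apart from the other 3. The change was 1.99 ± 0.197 (adjusted p = 1.1e-05), a 3.97-fold rise, and without that replicate it was 2.15. The ratio of Siglech to Cd22 per kilobase dropped from 205 ± 64.4 to 19.1 ± 2.42 in males and from 139 ± 13.8 to 22.8 ± 8.51 in females.

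Cd22 is best known from B cells, so markers of these cells were set beside it. Fcmr and Blk were at 0 in all 16 libraries, and Pax5 was at most 1.093. Cd79a, part of the B cell receptor, was at most 30.76. Its partner Cd79b read 1120 to 2024 and Ms4a1, a B cell surface gene, 76.22 to 206.6 over all libraries, and neither passed the test in either sex. Of the 5 markers tested, 2 fell in males, 1 fell in females and none rose. The 2 were the immunoglobulin genes Ighm, with changes of -0.65 ± 0.0855 in males (adjusted p = 7.97e-05) and -0.51 ± 0.0855 in females (adjusted p = 0.00149), and Ighd, with -1.24 ± 0.274 in males (adjusted p = 0.00654). The summed level of the list, most of it Ighm, was 24102 to 30329 in male controls and 16995 to 17991 in males on PLX3397, and 26083 to 32002 and 19024 to 22307 in females. Other B cell transcripts than Cd22 were thus present in these libraries, Fcmr and Blk were not detected, and no tested marker on the list rose. An antisense gene, Gm29439, overlaps Cd22 in the GENCODE M21 annotation, and counting by strand is not stated. Gm29439 read at most 5.936 in any library.

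**Figure D3:**
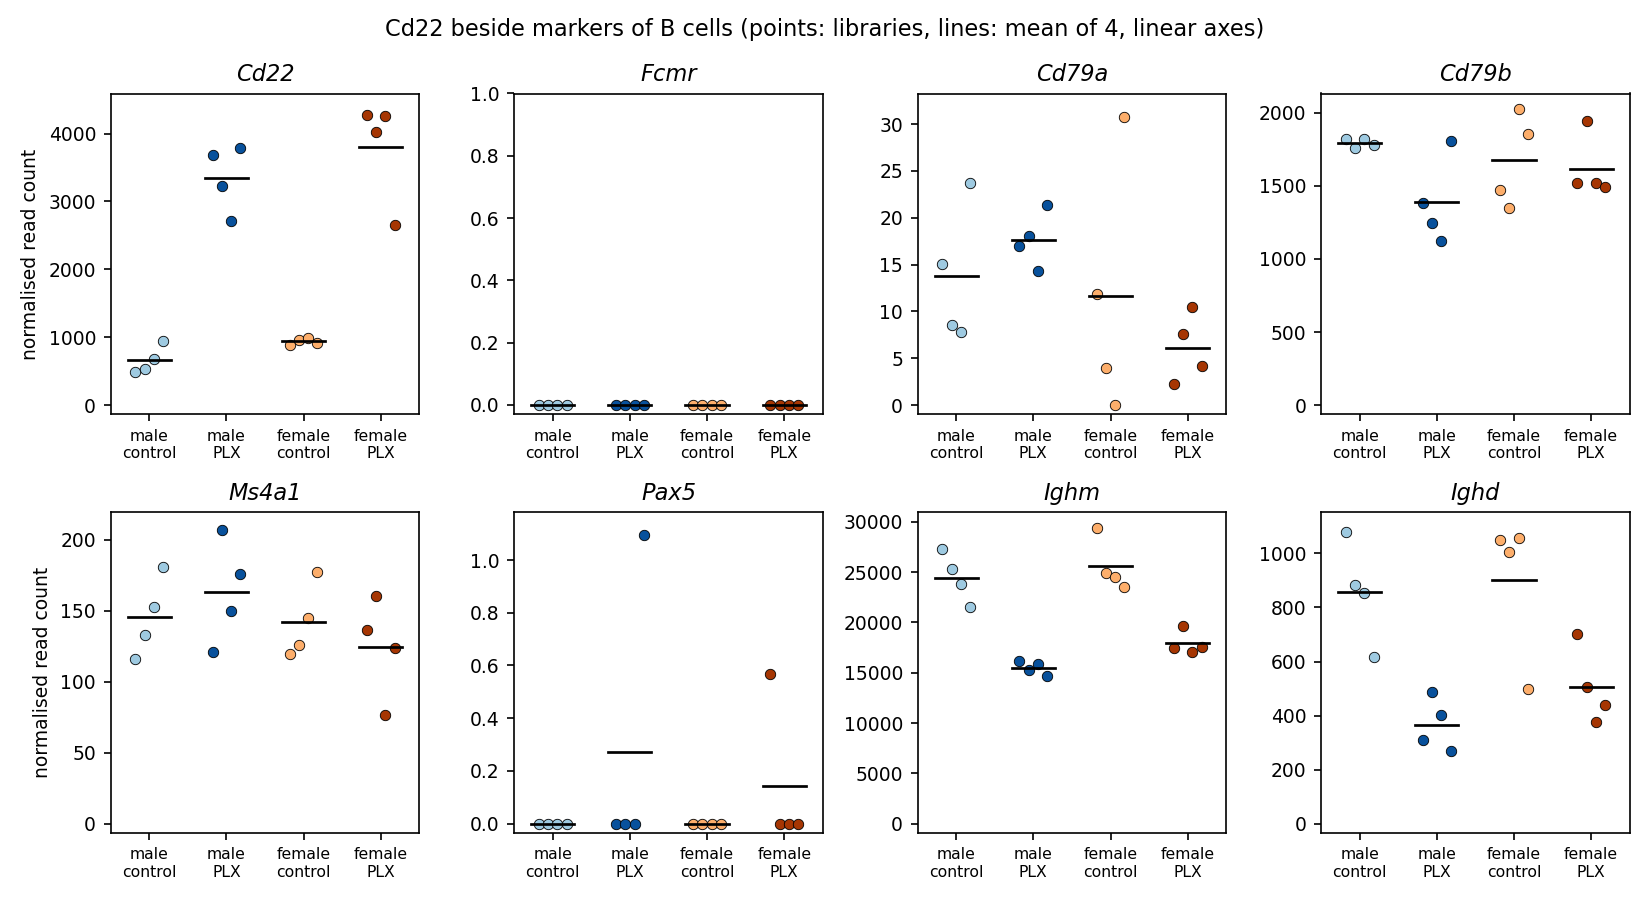
Normalised read counts (linear axes) of Cd22 and 7 B cell marker genes in every library, with lines for the mean of 4. Cd22 is higher on PLX3397 in both sexes, Fcmr is at 0 throughout, and Ighm is lower on PLX3397.

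RefSeq promoter windows of GRCm38.p6, 250 bases before to 50 after a start site, were at hand for 6 of the 7 members. Those of Siglech and Siglece, which fell in both sexes, and of Cd22, which rose in both, are printed 5′ to 3′ on the strand of the gene. They lie at chr7:55767934-55768233 (plus strand), chr7:43660112-43660411 (minus strand) and chr7:30878979-30879278 (minus strand). Capitals mark GAGGAA on either strand, the core letters bound by PU.1, a factor that myeloid cells need.
Siglech: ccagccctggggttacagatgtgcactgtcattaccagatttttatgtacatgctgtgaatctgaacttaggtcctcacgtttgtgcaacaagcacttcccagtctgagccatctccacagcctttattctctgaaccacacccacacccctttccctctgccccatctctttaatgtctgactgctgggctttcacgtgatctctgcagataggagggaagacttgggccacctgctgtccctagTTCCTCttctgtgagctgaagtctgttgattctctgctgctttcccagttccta
Siglece: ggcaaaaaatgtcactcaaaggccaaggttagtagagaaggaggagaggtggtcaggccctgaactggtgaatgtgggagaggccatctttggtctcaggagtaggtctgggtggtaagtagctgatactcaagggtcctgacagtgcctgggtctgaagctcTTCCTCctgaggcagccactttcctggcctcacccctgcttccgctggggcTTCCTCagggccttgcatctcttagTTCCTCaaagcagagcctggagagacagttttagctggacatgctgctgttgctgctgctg
Cd22: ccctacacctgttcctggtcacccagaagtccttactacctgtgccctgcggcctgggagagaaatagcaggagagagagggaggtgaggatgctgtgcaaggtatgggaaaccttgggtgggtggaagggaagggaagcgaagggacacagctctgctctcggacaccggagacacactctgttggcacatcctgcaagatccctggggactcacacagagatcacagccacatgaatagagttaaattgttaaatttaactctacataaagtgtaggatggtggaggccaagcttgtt
Siglece held these letters 3 times, Siglech once across its start site, from position -4 to 2, and Cd22 did not hold them. In all, 5 of the 6 members with a window held them at least once. These members had 7 windows, since Siglecg had an extra window, which did not hold the letters. Counted by window and not by gene, 28.3% of 32851 windows of that length held them. The other 4 motifs searched on both strands were TGANTCA (AP-1) and those of the interferon-stimulated element, NF-kB and MEF2. None of them was in any window of a member, beside 7.81%, 3.44%, 0.411% and 0.11% of all windows. The letters are a description of these windows only.

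Siglecg, an inhibitory member known from B cells, was low. It read 484, 594, 615 and 338 in male controls and 36.1, 150, 198 and 242 in males on PLX3397. The groups did not overlap, and the change was -1.95 ± 0.485 (adjusted p = 0.0137), or -1.36 without male PLX replicate 1, the lowest library (adjusted p = 0.022). In females the controls read 603, 543, 297 and 365 and the treated libraries 155, 142, 167 and 390. Replicate 4 on PLX3397 lay within the control range, and the difference of -1.16 ± 0.485 did not pass (adjusted p = 0.222). Its 95% interval ran from -2.18 to -0.13.

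Siglecf, known as the Siglec of eosinophils, gave values of 1796, 1739, 1463 and 2012 in male controls and 1441, 1593, 1395 and 1761 on PLX3397. These groups overlapped, and the difference of -0.18 ± 0.159 did not pass (adjusted p = 0.555, 95% interval -0.51 to 0.16). Female controls read 1933, 1347, 1995 and 2135, and females on PLX3397 1180, 1124, 1017 and 1454. The change of -0.62 ± 0.159 passed (adjusted p = 0.0273), though control replicate 2 lay below treated replicate 4. The call ended without female control replicate 1 (adjusted p = 0.0778), 3 (0.0794) or 4 (0.0916), and without female PLX replicate 1 (0.0642), 2 (0.0738) or 3 (0.0819). It also ended in a fit to these groups alone (0.0965) and with voom weights (0.0519). The eosinophil genes Prg2, Ear1 and Ear6 were at 0 in all 16 libraries and Epx was at most 11.13, while the 7 listed markers summed to between 33.21 and 205.5.

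Cd33 barely differed between the chows. Male controls read 24431, 24889, 30008 and 24010, and males on PLX3397 21700, 21303, 22633 and 23955. The treated males lay just below the controls without overlap, but the difference of -0.20 ± 0.0888 did not pass (adjusted p = 0.175, 95% interval -0.39 to -0.01). In females the groups overlapped, at 23704 to 27287 on control chow and 21227 to 27439 on PLX3397, and the difference was -0.07 ± 0.0888 (adjusted p = 0.759, 95% interval -0.26 to 0.11). With quantile normalisation the difference in males was 0.077. The interval of Cd33 did not reach that of Siglech in either sex.

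Siglec1, a macrophage receptor that interferon raises, was low and varied widely among libraries of each group. It read 260, 44.3, 266 and 39.2 in male controls, 508, 157, 200 and 374 in males on PLX3397, 275, 263, 17.3 and 197 in female controls, and 22.3, 283, 166 and 40.1 in females on PLX3397. All 4 groups overlapped, and the SD was 52.3% to 95.1% of the mean. Differences of 1.39 ± 0.944 in males (adjusted p = 0.409) and -0.63 ± 0.944 in females (adjusted p = 0.816) did not pass. Interferon response genes were tested beside it: 15 of 28 rose in males and 12 of 28 in females, none fell in either, and the medians were 1.44 and 1.02. Of 10 border-associated macrophage markers, another source of Siglec1, 6 fell in males and 4 in females and none rose. Their summed level was 2238 to 3475 in male controls, 753.5 to 1137 in males on PLX3397, 1834 to 3921 in female controls and 1051 to 1676 in females on PLX3397. Lyve1 and Cd209f were at 0 in all 4 males on PLX3397. The part of these cells in the Siglec1 values was not tested.

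**Figure D4:**
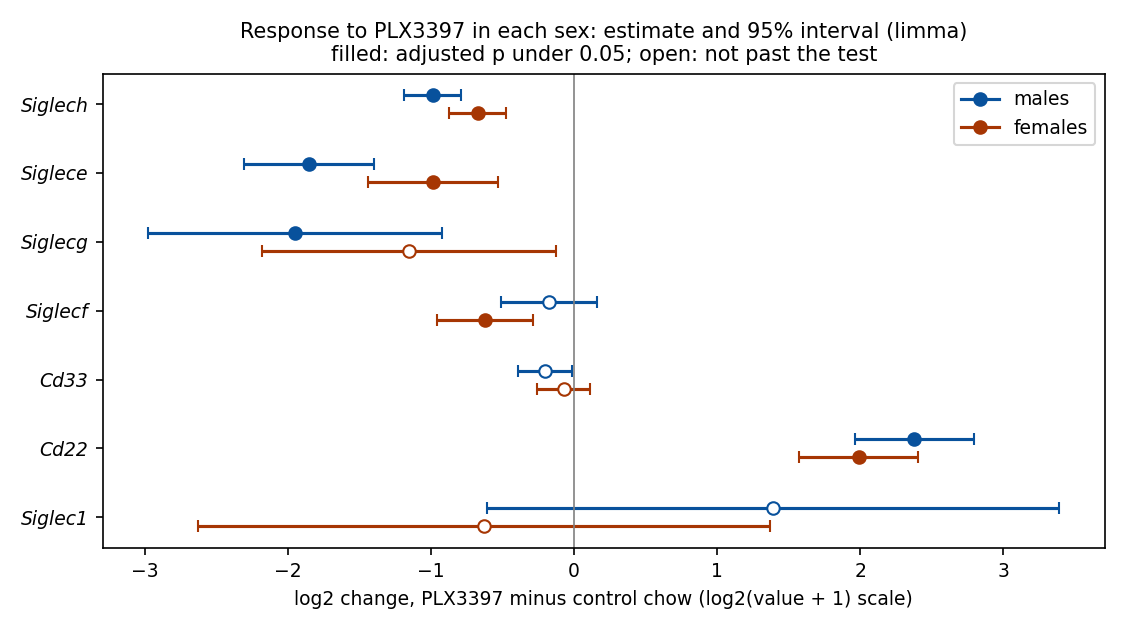
Log2 change between PLX3397 and control chow for each Siglec gene, with 95% intervals, in males and females, where filled points passed the adjusted test. Cd22 lies to the right of 0 and Siglech and Siglece to the left in both sexes, and the wide intervals of Siglec1 cross 0.

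The difference between the responses, females minus males, asks whether the sexes reacted unequally. No member passed in limma or with voom weights, and 0 of 19594 genes (0%) did so. At an unadjusted p under 0.05, 2 of 7 members and 2010 genes differed. The 2 were Siglece, with a difference of 0.87 ± 0.302 (adjusted p = 0.326, 95% interval 0.23 to 1.51), and Siglech, with 0.32 ± 0.132 (adjusted p = 0.422, 95% interval 0.04 to 0.60). For Cd22 the difference was -0.39 ± 0.278 (adjusted p = 0.676, 95% interval -0.98 to 0.20). The 95% interval of Siglecf ran from -0.92 to 0.03 and that of Cd33 from -0.14 to 0.39. Those of Siglecg (-0.66 to 2.25) and Siglec1 (-4.85 to 0.80) were wider. A larger response of either sex was thus not shown for any member.

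Between the sexes on control chow, 0 of 7 members differed in limma or with voom weights, beside 0.0663% of all genes, 0.0153% higher in females and 0.051% lower. Cd22 came nearest, at 658.9 ± 204 in males and 939.3 ± 42.4 in females (SD, n = 4). Its difference was 0.56 ± 0.197 (adjusted p = 0.92), and male replicate 4, at 939, lay among the females. Of the 7 members only Cd22 had an unadjusted limma p under 0.05, as did 1017 of the 19594 genes tested. Siglech and Siglece differed by 0.05 ± 0.0934 and -0.01 ± 0.214, with 95% intervals of -0.15 to 0.25 and -0.47 to 0.44.

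On PLX3397, 2 of 7 members were higher in females than in males, beside 5.43% of all genes that differed, 4.28% higher and 1.15% lower. Siglech was 54904 ± 5650 in females and 42672 ± 5890 in males (SD, n = 4), a difference of 0.37 ± 0.0934 (adjusted p = 0.0334). Every female library, from 51019 up, lay above every male library, of which the highest was 50982, so the ranges nearly met. Summed values per library were 32641505 to 39584145 in these males and 41574208 to 42268064 in these females. Male replicate 4 (50982) and female replicate 1 (51019) nearly matched in Siglech, at summed values of 39584145 and 41574208. With totals made equal, that male library would lie above that female one, so the Siglech ranges would overlap. Whether the ranges stay apart under upper-quartile scaling or quantile normalisation was not tested. Siglece was 2531 ± 502 in females and 1465 ± 623 in males, a difference of 0.85 ± 0.214 (adjusted p = 0.0317), and here male replicate 4, at 2353, lay within the female range. Microglial markers moved the same way, with 8 of 9 higher in females, and neutrophil markers the other way, with 8 of 11 lower. The part of either in the difference was not tested.

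Both calls depended on scaling and on single libraries. Upper-quartile scaling moved the median of all genes by -0.149, and equal library totals moved it by -0.196. The split of 838 higher and 226 lower genes became 265 and 341 under the former, 196 and 375 under the latter, and 246 and 221 after quantile normalisation. The differences were then 0.22, 0.17 and 0.13 for Siglech (adjusted p = 0.124, 0.15 and 0.225) and 0.70, 0.65 and 0.72 for Siglece (0.0606, 0.0603 and 0.0701), given in the order upper-quartile, equal totals and quantile. Both calls ended with no filter on low values (adjusted p = 0.0779 for Siglech and 0.0533 for Siglece) and in the fit to those groups alone (0.139 and 0.147). Siglech lost its call without male PLX replicate 1 (adjusted p = 0.0504), 2 (0.11) or 3 (0.0913) and without female PLX replicate 2 (0.0567), 3 (0.0572) or 4 (0.0831). Siglece lost it without male PLX replicate 2 (0.108) or 3 (0.0942) and without female PLX replicate 2 (0.0503), 3 (0.0878) or 4 (0.0764). The direction, higher in females, held under all 27 alternatives for both genes.

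**Figure D5:**
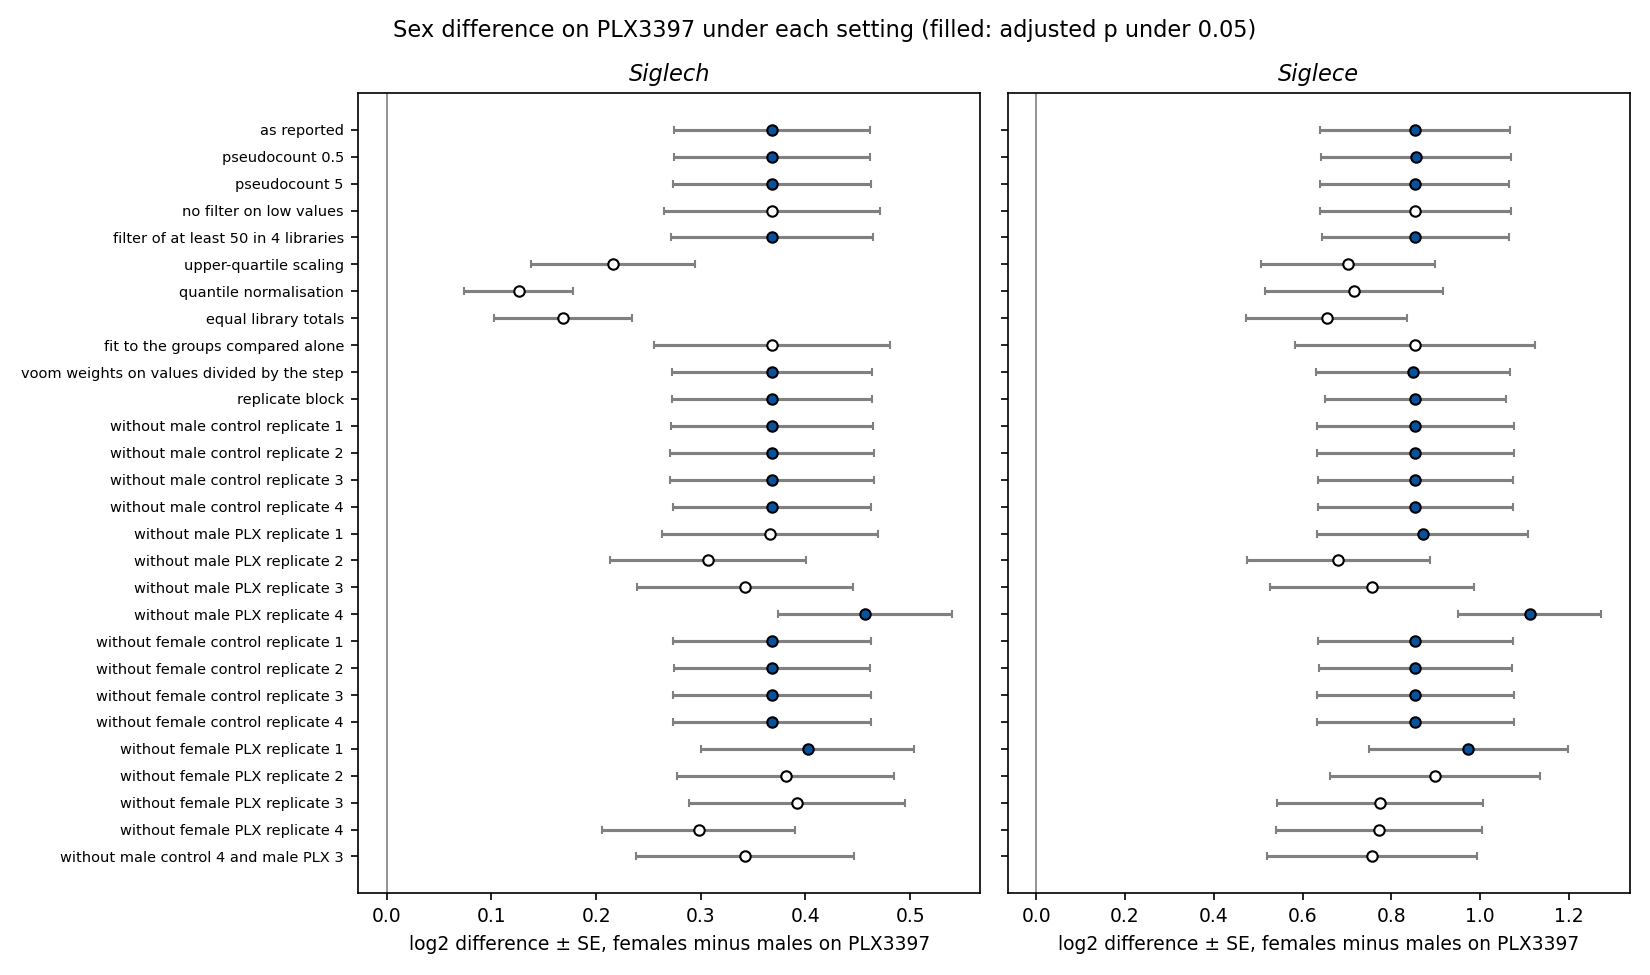
Log2 difference ± SE between females and males on PLX3397 for Siglech and Siglece under each processing setting and with each library left out, where filled points passed the adjusted test. All points lie to the right of 0, between 0.13 and 0.46 for Siglech and between 0.65 and 1.11 for Siglece, and many are open.

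Genes that work with Siglecs were taken from lists of 12 adaptors and effectors, 8 genes of sialic acid supply, 20 sialyltransferases and 6 enzymes that remove or modify sialic acid. Of the 12 adaptors and effectors, 1 rose, 3 fell and 8 did not pass in males, with a median of -0.10. The riser was Tyrobp, the adaptor of Siglech, which went from 41803 ± 1180 to 62354 ± 11900 (SD, n = 4), a change of 0.56 ± 0.109 (adjusted p = 0.0025), while Siglech itself fell. Lyn, a kinase that phosphorylates inhibitory motifs, fell by 0.52 ± 0.0783 (adjusted p = 0.000299). Ptpn6, the phosphatase such motifs recruit, fell by 0.45 ± 0.0952 (adjusted p = 0.00488) and Vav1, a signalling exchange factor, by 0.46 ± 0.0941 (adjusted p = 0.00355). With quantile normalisation the calls of Ptpn6 (adjusted p = 0.0557) and Vav1 (0.0716) ended.

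In females 1 of the 12 rose, 1 fell and 10 did not pass, with a median of -0.07. Tyrobp rose by 0.57 ± 0.109 (adjusted p = 0.00428), from 40813 ± 3490 to 60508 ± 5810. Inpp5d, which encodes an inhibitory lipid phosphatase, fell by 0.42 ± 0.0894 (adjusted p = 0.00964). On PLX3397, 2 of the 12 were higher in females than in males, Lyn by 0.47 ± 0.0783 (adjusted p = 0.00556) and Ptpn6 by 0.37 ± 0.0952 (adjusted p = 0.0364). Ptpn6 lost this call under 11 of 27 alternatives, with an adjusted p of up to 0.388, and Lyn lost it under 2, with up to 0.0983.

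Among enzymes that make Siglec ligands, 14 of the 20 sialyltransferases passed the filter. In males 1 rose, 3 fell and 10 did not pass, with a median of -0.20. St3gal5, which makes the first ganglioside, fell from 11448 ± 413 to 5342 ± 1250, by 1.13 ± 0.142 (adjusted p = 5.83e-05), and St6galnac4 and St3gal2 fell by 0.99 ± 0.133 and 0.75 ± 0.13. St6gal1, which makes the sialic acid linkage that CD22 prefers, rose from 2862 ± 203 to 4554 ± 697, by 0.66 ± 0.15 (adjusted p = 0.00764). In females 2 of 14 fell and 12 did not pass, with a median of -0.12, and St6gal1 was 3665 ± 476 on control chow and 4570 ± 990 on PLX3397. The 2 were St3gal2 (-0.48, adjusted p = 0.0385) and St3gal5 (-0.51, adjusted p = 0.0476). Their calls ended under 10 and 16 of 27 alternatives. The highest adjusted p was 0.116 for St3gal2, when female control replicate 3 was left out, and 0.15 for St3gal5, when female PLX replicate 1 was. Both St3gal5 (0.77, adjusted p = 0.00832) and St6galnac4 (0.58, adjusted p = 0.0223) were higher in females than in males on PLX3397. In the fit to those groups alone these calls ended (0.0772 and 0.117), and that of St6galnac4 ended under 9 alternatives in all.

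None of the 8 sialic acid supply genes changed in either sex, with medians of -0.12 in males and 0.02 in females. Of the 4 tested genes that remove or modify sialic acid, only Neu1, the lysosomal sialidase, changed. It rose by 0.42 ± 0.103 in males (adjusted p = 0.0133) and by 0.45 ± 0.103 in females (adjusted p = 0.0145). In females its call ended without female PLX replicate 1 (adjusted p = 0.0552) or 2 (0.0505) and in the fit to those groups alone (0.0735).

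The genes whose levels ran most closely with each member were named by Pearson correlation over the 16 libraries, which share the 4 groups, among 13523 genes with a mean of at least 50. For Siglech they were Selplg (r = 0.989), P2ry12 (0.985) and Cd164 (0.984), and for Siglece Gal3st4 (0.989), Tmem119 (0.989) and Selplg (0.984). Cd22 ran with Fam20c (0.974), Cxcl16 (0.971) and Mt1 (0.961). Siglecg ran with Zfp280c (0.923), Klhl23 (0.921) and Bank1 (0.901). The highest values for Siglecf (Zfand6, 0.851), Cd33 (Sgsm3, 0.845) and Siglec1 (Gm48551, 0.817) were lower. Siglech and Siglece correlated with each other at 0.974, and with Cd22 at -0.878 and -0.808. These are descriptions, since the values of Siglech, Siglece and Cd22 lay apart between the 2 chows in both sexes. For Cd33 and Siglec1 no difference between the chows passed, and how their spread divides was not tested.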

How the data were processed

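Total RNA of the sorted cells was amplified as cDNA (SMARTer Ultra Low Input) before Nextera XT library preparation, per the labels' protocols. Named in the submitters' processing notes, without their roles, are the build GRCm39 and the tools STAR 2.7.9a, featureCounts 2.0.1, Subread, bcl2fastq 2.19.1 and Salmon 1.5.2. The authors deposited 1 table of a signal per gene, read counts normalised by a formula not given in the sources used here. Values within 0.05 of a whole multiple of a library's step made up 45.0% to 72.1% of its low values, so whole reads were not recovered, count models were not used and precision is given as SD and SE. Columns were mapped to samples by their labels. A table of gene names gave symbols for 51029 of 53850 identifiers, and exon lengths came from GENCODE M21, which is not the authors' build.

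A gene was tested where 4 or more libraries reached 10. The test was that of limma 3.58.1 (R 4.3.3) with a trend, on log2(value + 1), two-sided, with a mean for each of the 4 groups. A call needed a Benjamini-Hochberg adjusted p under 0.05 over all genes. The procedure was tested on simulated data. The members, gene lists, comparisons and alternatives were chosen with earlier results of these data known. The rule for names took all 7 members, up to 4 called genes of a related list by p, and the 3 most alike genes per member. The alternatives were other pseudocounts, filters and scalings, a fit to the groups compared alone, voom weights, leaving out each library, and a replicate block. The same alternatives for the related genes were added after seeing the data. 1 marker of the B cell list is not reported here. Plots were made in matplotlib 3.10.9 (Python 3.11.15).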

Additional observations from a re-analysis of the deposited data

Results flagged for a closer look

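Among the 28 sets of 4 libraries (7 members in 4 groups), 3 had a library far from the other 3 by Dixon's criterion, which chance alone meets in about 1 set in 20. Siglecg in females on PLX3397 read 390 in replicate 4 and 142 to 167 in the others, and its change in females was -1.49 without that library (adjusted p = 0.103). Cd22 in females on PLX3397 read 2652 in the same replicate 4 and 4020 to 4267 in the others. Cd33 in male controls read 30008 in replicate 3 and 24010 to 24889 in the others, and its difference in males was -0.13 without that library (adjusted p = 0.438).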

How the results depend on the processing

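Of 938 values of a member under an alternative, 888 kept direction and side of the threshold, 31 lost the call and 19 changed sign, all 19 for differences that had not passed. The calls of Siglech, Siglece and Cd22 in both sexes and of Siglecg in males held under all 27 alternatives. The number of members that differed between the sexes on PLX3397 was 2, and it was 0 with no filter on low values, with upper-quartile scaling, quantile normalisation or equal library totals, in the fit to the groups compared alone and without male control replicate 4 and male PLX replicate 3 together. It was 0 to 2 when single libraries were left out, and the cause was not tested. The sign of Cd33 changed in males with quantile normalisation (0.077), in the difference between responses with quantile normalisation (-0.133) and equal totals (-0.038), and between the sexes on PLX3397 with upper-quartile scaling (-0.048), quantile normalisation (-0.173) and equal totals (-0.096), where that of Cd22 also did (-0.033 with equal totals). On control chow, leaving out single libraries moved the difference between the sexes over 0: from -0.205 to 1.20 for Siglec1, -0.072 to 0.05 for Siglece, -0.016 to 0.214 for Siglecf and -0.059 to 0.051 for Cd33, and Siglec1 was at -0.205 without both libraries named above. Over all genes, the 1064 that differed between the sexes on PLX3397 became 669 with no filter, 606 with upper-quartile scaling, 467 with quantile normalisation, 571 with equal totals, 44 in the fit to those groups alone, 345 without both libraries and 332 to 1242 without single ones (332 without male PLX replicate 2 and 469 without 3, and 480, 677 and 709 without female PLX replicates 3, 2 and 4). The 2289 genes in males became 1518 without both libraries, the 13 between controls became 8 with voom weights and 11 to 20 without single libraries (20 without male control replicate 1), and the 0 of the difference between responses became 0 to 6 without single libraries (6 without male PLX replicate 4) and 2 without both.

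Same-numbered libraries showed no common deviation: their deviations from group means, over all genes tested, correlated at -0.045 to 0.021. The labels name no pairing, and correlations over all genes cannot exclude one that touches few genes. With a replicate block the numbers of members called stayed at 4 in males, 4 in females, 0 for the difference between responses, 0 between controls and 2 on PLX3397, and all genes called were 2136 in males, 962 in females, 12 between controls and 863 on PLX3397. St3gal5 in females lost its call under the block (adjusted p = 0.0576).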

Other observations

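Other Siglec genes of the mouse were looked up beside the 7. Mag, the myelin member that oligodendrocytes use, read 1507 to 1841 in male controls, 1159 to 1533 in males on PLX3397, 1809 to 2542 in female controls and 1277 to 2016 in females on PLX3397, and it passed the test in none of the 5 comparisons. Of the 5 oligodendrocyte markers tested, Mag among them, 1 rose and 1 fell in males and 1 rose in females. Siglec15 was at 0 in all 16 libraries. D7Ertd128e, a noncoding gene between Cd22 and Mag in the RefSeq order, read 106.1 to 205 in male controls and 101.6 to 322.8 in males on PLX3397, and 35.65 to 162.6 and 105.1 to 261 in the female groups. Its groups overlapped in both sexes.

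In both treated groups replicate 4 held the highest Siglech, Siglece, Siglecg, Siglecf and Cd33. For Cd22 it was the highest treated library in males (3784) and the lowest in females (2652), and for Siglec1 it was highest in neither. Male PLX replicate 4 also had the largest summed value of its group (39584145). In males on PLX3397 that library also read highest for P2ry12 (70892, against 48658 to 62601 in the others) and Tmem119 (85302, against 40651 to 48478). In females on PLX3397, replicate 4 was highest for P2ry12 (99746), beside replicate 3 at 99544, and replicate 3 was highest for Tmem119 (143568).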
